A study of Mus musculus with 6 samples.

Results

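FOXO transcription factors and genes under their control were examined in thyroid organoids carrying an inducible Braf oncogene, as a set of 9 genes out of the 25239 listed in the deposited count table. The set was fixed by gene symbol and holds 3 factors (Foxo1, Foxo3 and Foxo4) and 6 genes reported to be FOXO targets in other tissues (Txnip, Sesn3, Fbxo32, Ccng2, Bcl6 and Trim63). All 9 symbols were found, and all 9 passed the filter on low counts. FOXO factors are forkhead proteins that are held in the cytoplasm when the kinase AKT, acting downstream of PI3K, phosphorylates them, and that enter the nucleus and bind forkhead motifs when AKT activity falls. Their targets include genes of growth arrest, defence against oxidative stress, protein breakdown and glucose handling. The signal reaches the factors mainly through phosphorylation and location, neither of which is measured by RNA-seq, so the level of a Foxo mRNA does not report on the activity of the protein.

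The organoids came from G4 RosaLuc mouse embryonic stem cells that express Nkx2-1 and Pax8 when given doxycycline, and in which a bovine thyroglobulin (bTg) promoter drives a fusion of Braf V637E, the mouse form of human BRAF V600E, with the ERT2 domain that 4-hydroxytamoxifen (4OHT) activates. Every group carried both transgenes and had been differentiated with doxycycline for 5 days and 8-Br-cAMP for 2 weeks, and was collected for bulk RNA-seq on day 31 with 8-Br-cAMP still present. The cAMP group received no 4OHT, the 4OHT group received 4OHT at 1 µM, and the PD+LY group received 4OHT at 1 µM together with 250 nM PD0325901, which blocks MEK, and 5 µM LY204002 (spelled as in the labels), which blocks PI3K. Each group held 2 libraries, each from at least 3 pooled wells. The inhibitors were given together, so the part of either one cannot be told apart, and no organoids without the Braf fusion are among the 6 libraries. The sources give 5 days of 4OHT in one place, and 4 days of 4OHT followed by 3 days with the inhibitors in another, so the length of 4OHT exposure may differ between the 4OHT and PD+LY groups. The fusion is expressed only where the bTg promoter is active, whereas the RNA was drawn from follicle-enriched organoids that hold other cells too.

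The libraries held 14898409 to 20637959 counts, so that 1 count stood for 0.0486 to 0.0667 CPM (counts scaled to the normalized size of each library). Of 8 thyroid follicular markers, all 8 had at least 3 counts in every library, and their summed level was 1103 to 1647 CPM in cAMP, 570 to 760 CPM with 4OHT and 985 to 1974 CPM with PD+LY. Markers of other cells were present too: 5 pluripotency genes summed to 2602 to 3566 CPM and 6 mesenchymal genes to 800 to 3015 CPM over the 6 libraries. Of 5 feedback genes of the ERK pathway, read as a check of the inhibitor labels, 4 fell with PD+LY against 4OHT (Spry4, Etv4, Dusp6 and Spry2, log2 fold change −6.33, −6.18, −2.45 and −0.70), and Etv5 was at 0.24 and did not pass. With 4OHT against cAMP Etv4 rose by 0.80, Dusp6 and Etv5 fell (−0.72 and −0.54), and Spry4 and Spry2, at 0.10 and −0.40, did not pass.

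The FOXO factors lie on different chromosomes of GRCm38 (mm10), Foxo1 at chr3:52268336-52353221, Foxo3 at chr10:42181841-42276755 and Foxo4 at chrX:101254528-101260873. The target genes were Txnip at chr3:96557957-96561883, Sesn3 at chr9:14275067-14333101, Fbxo32 at chr15:58175879-58214932, Ccng2 at chr5:93267257-93276231, Bcl6 at chr16:23965052-23988852 and Trim63 at chr4:134315120-134329629. All 9 are protein-coding. The counts were made without regard to strand, and 4 of the 9 genes share exon bases with a gene on the opposite strand: Foxo1 shares 674 bases with Gm20402, Txnip 606 with Gm15441, Fbxo32 186 with Gm15943 and Bcl6 21 with Gm37419. Reads over those bases cannot be assigned to one strand. Gm15441 had 50 counts over all 6 libraries, against 4576 to 6360 counts of Txnip in each library.

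Levels between genes were compared per length, as CPM per kilobase of annotated exon. In cAMP organoids Txnip stood highest at 93.4 ± 0.993 CPM per kilobase (mean ± SD, n = 2), followed by Foxo4 at 25.0 ± 0.471, Ccng2 at 9.44 ± 0.129, Foxo3 at 6.80 ± 0.345 and Foxo1 at 5.34 ± 0.122. The lower positions were held by Trim63 at 3.77 ± 0.430, Sesn3 at 3.25 ± 0.111, Fbxo32 at 2.51 ± 0.546 and Bcl6 at 1.20 ± 0.0800 CPM per kilobase. Neighbours in this order did not overlap between the cAMP libraries. Among the factors, the order Foxo4, Foxo3, Foxo1 held in all 3 groups, with no overlap between neighbours. The fourth family member, Foxo6, stood below the other factors at 0.986 ± 0.103 CPM per kilobase in cAMP, 1.75 ± 0.0998 with 4OHT and 1.93 ± 0.906 with PD+LY. In 4OHT organoids Foxo3 overlapped with Ccng2 and Bcl6 with Sesn3, and in PD+LY organoids Trim63, at 0.804 and 1.06 CPM per kilobase, overlapped with Bcl6, at 0.769 and 1.03. Among all tested genes ranked by mean log2 CPM, Txnip stood at percentile 97.0, Foxo4 at 78.1, Bcl6 at 34.6 and Trim63 at 29.9.

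The sequence just upstream of the start of transcription was read from RefSeq promoters (GRCm38.p6) for the 7 of 9 genes with an entry, as the 250 bases before the annotated start. The forkhead core GTAAACA was searched on both strands (it reads TGTTTAC on the other), together with the variant GTAAATA (which reads TATTTAC on the other). Of 8 entries for the 7 genes (Bcl6 has a pair), 2 held GTAAACA, those of Trim63 and Txnip, and 0 held GTAAATA. Among all 32851 promoter entries, 3.17% held GTAAACA and 2.73% held GTAAATA. The windows are shown for Trim63 and Txnip because both hold the core, and Trim63 fell with PD+LY while Txnip passed the test in no comparison, and for Bcl6 and Sesn3 because both genes passed the test in both comparisons that involve the 4OHT group and neither window holds the core. Ccng2 also passed in both and its window holds no core, but all 250 bases of that window lie within annotated exons of Ccng2 itself, so it is not shown. The Sesn3 window lies within the annotated span of Sesn3, which begins at chr9:14275067, but outside its exons. It thus precedes an internal start of the gene. The other Bcl6 entry, chr16:23981284-23981533, also lies within the span of its gene and is not shown. Each window shown is printed 5′ to 3′ on the strand of the gene, with the core in capitals.
Trim63, chr4:134314870-134315119, plus strand: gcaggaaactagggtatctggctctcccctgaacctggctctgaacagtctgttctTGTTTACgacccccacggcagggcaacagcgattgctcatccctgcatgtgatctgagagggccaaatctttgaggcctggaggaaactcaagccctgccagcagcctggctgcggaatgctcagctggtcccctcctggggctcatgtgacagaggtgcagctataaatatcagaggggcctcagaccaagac
Txnip, chr3:96557707-96557956, plus strand: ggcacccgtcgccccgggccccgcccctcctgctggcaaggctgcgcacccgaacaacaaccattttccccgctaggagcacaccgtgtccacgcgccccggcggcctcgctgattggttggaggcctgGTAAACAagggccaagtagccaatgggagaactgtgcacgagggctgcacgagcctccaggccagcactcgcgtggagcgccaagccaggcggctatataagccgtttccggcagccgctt
Bcl6, chr16:23988853-23989102, minus strand: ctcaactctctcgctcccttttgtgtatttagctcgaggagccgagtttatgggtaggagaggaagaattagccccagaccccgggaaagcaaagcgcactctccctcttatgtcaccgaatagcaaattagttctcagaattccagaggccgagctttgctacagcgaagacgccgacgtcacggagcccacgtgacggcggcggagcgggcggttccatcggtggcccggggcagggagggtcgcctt
Sesn3, chr9:14276051-14276300, plus strand: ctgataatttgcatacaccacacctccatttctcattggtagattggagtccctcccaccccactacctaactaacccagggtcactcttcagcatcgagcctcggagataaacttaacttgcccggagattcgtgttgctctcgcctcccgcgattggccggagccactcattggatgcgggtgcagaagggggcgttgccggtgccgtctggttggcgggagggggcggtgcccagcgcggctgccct
In the Trim63 window the core begins 194 bases before the start and reads TGTTTAC, which is GTAAACA on the other strand. In the Txnip window it begins 121 bases before the start on the strand of the gene. These are matches of letters, no binding was measured, and the absence of a match says nothing of sites outside the windows.

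Across the 3 comparisons the 9 genes went in different directions. With 4OHT against cAMP, 3 of 9 passed an adjusted p of 0.05 (edgeR quasi-likelihood test, Benjamini-Hochberg over 15256 genes), where 8.39% of all tested genes passed: Bcl6 rose, and Ccng2 and Sesn3 fell. Upward calls made up 4.04% and downward calls 4.35% of all tested genes. Of the 9, 0 also changed at least 2-fold, as 2.67% of all tested genes did. With PD+LY against 4OHT, 5 of 9 passed, where 22.7% of all tested genes passed: Fbxo32 and Sesn3 rose, as 10.7% of all tested genes did, and Trim63, Bcl6 and Ccng2 fell, as 12.1% did. Of these, 2 (Trim63 and Bcl6) changed at least 2-fold, as 7.26% of all tested genes did. With PD+LY against cAMP, 3 of 9 passed and all 3 fell (Trim63, Ccng2 and Foxo4), where 25.7% of all tested genes passed, 12.1% upward and 13.7% downward. Of these, 2 (Trim63 and Ccng2) changed at least 2-fold, as 9.24% of all tested genes did. The median log2 fold change of the 9 genes was −0.25, −0.06 and −0.14 in the 3 comparisons, and that of all tested genes −0.0021, 0.0077 and 0.0049. The libraries of the groups compared did not overlap for 8, 5 and 7 of the 9 genes, and for 58.5%, 62.3% and 61.4% of all tested genes. The first comparison shares the 4OHT libraries with the second, and the third shares libraries with both, so the comparisons are not independent of one another. The number called with 4OHT against cAMP was 0 without 4OHT library 1 or 2, 1 without cAMP library 1 or 2, and 5 without PD+LY library 1 or 2. For PD+LY against 4OHT it was 3 without 4OHT library 1 and 2 without 4OHT library 2.

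**Figure D1:**
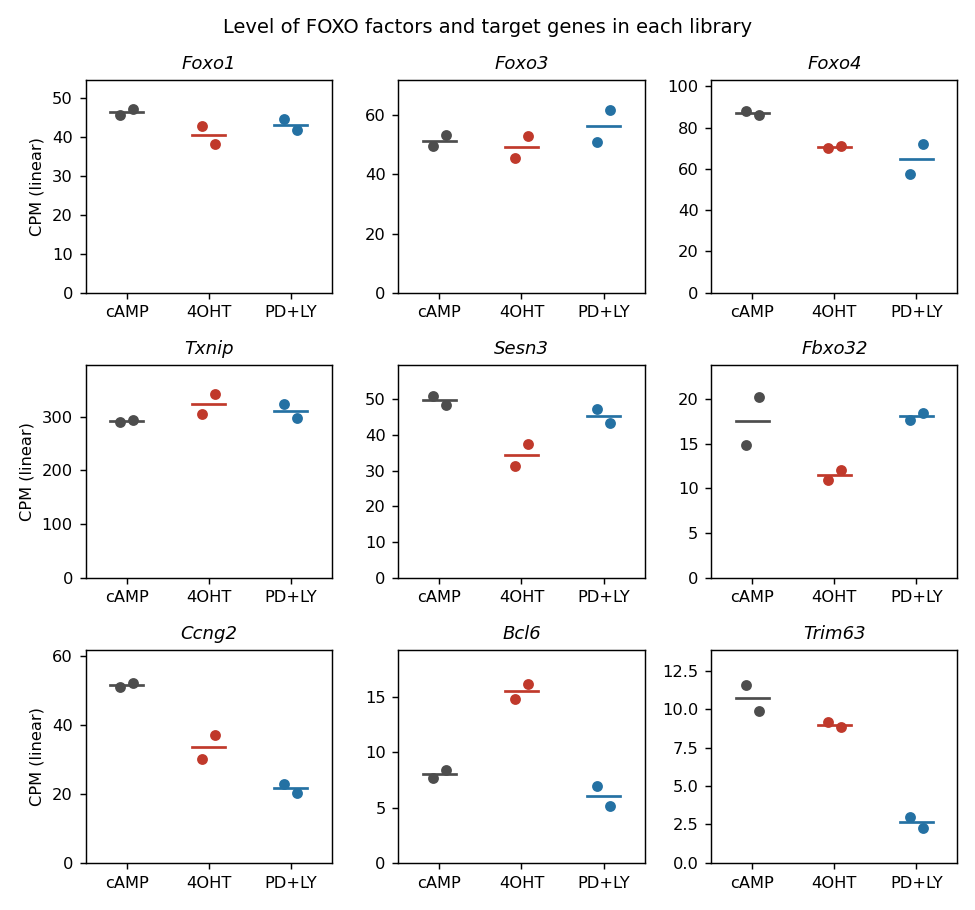
Level of each of the 9 genes in the 6 libraries, in CPM on a linear axis that starts at 0 (points, 1 per library, 2 per group; bars, group means). Bcl6 sits at 14.8 and 16.2 CPM in 4OHT and at 8.43 or less in the other libraries, Trim63 is at 3.01 or less in PD+LY and at 8.83 or more elsewhere, and Foxo1 stays within 38.1 to 47.0 CPM.

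Of the 3 factors, Foxo4 alone passed the test, and in a single comparison, that of PD+LY against cAMP. Foxo1, a main effector of insulin signalling, stood at 45.5 and 47.0 CPM in the cAMP libraries, 42.7 and 38.1 in 4OHT, and 44.4 and 41.7 in PD+LY. Its log2 fold change was −0.20 (95% interval −0.45 to 0.06) for 4OHT against cAMP, 0.09 (−0.16 to 0.35) for PD+LY against 4OHT and −0.10 (−0.36 to 0.15) for PD+LY against cAMP, and none of the 3 passed the test. Both 4OHT libraries were below both cAMP libraries, and the PD+LY libraries overlapped with those of 4OHT.

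Foxo3, often studied as a factor of stress resistance, stood at 49.6 and 53.3 CPM in cAMP, 45.7 and 52.9 with 4OHT, and 51.1 and 61.9 with PD+LY. The groups overlapped in every comparison. The intervals of its log2 fold change were −0.34 to 0.22 for 4OHT against cAMP, −0.09 to 0.48 for PD+LY against 4OHT and −0.15 to 0.41 for PD+LY against cAMP.

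Foxo4 was the most abundant factor, with 88.2 and 85.9 CPM in cAMP, 70.3 and 70.9 with 4OHT, and 57.4 and 72.2 with PD+LY. Both 4OHT libraries and both PD+LY libraries lay below both cAMP libraries, while 4OHT and PD+LY overlapped. For PD+LY against cAMP its log2 fold change was −0.43 ± 0.12 (SE), with an adjusted p of 0.0202 from the edgeR test. That call was lost without cAMP library 1 (−0.41), without cAMP library 2 (−0.44) and without PD+LY library 1 (−0.27). For 4OHT against cAMP the value was −0.30 ± 0.12 with an adjusted p of 0.143, which passed without PD+LY library 1 or 2 (adjusted p 0.0284 and 0.0305, edgeR). Foxo6, expressed mostly in brain in the adult, had 44 and 49 counts in cAMP, 66 and 87 with 4OHT, and 66 and 138 with PD+LY, the last pair being far apart. It rose with PD+LY against cAMP by 0.97 ± 0.33 on the log2 scale, with an adjusted p of 0.0493 in the edgeR test, near the threshold.

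**Figure D2:**
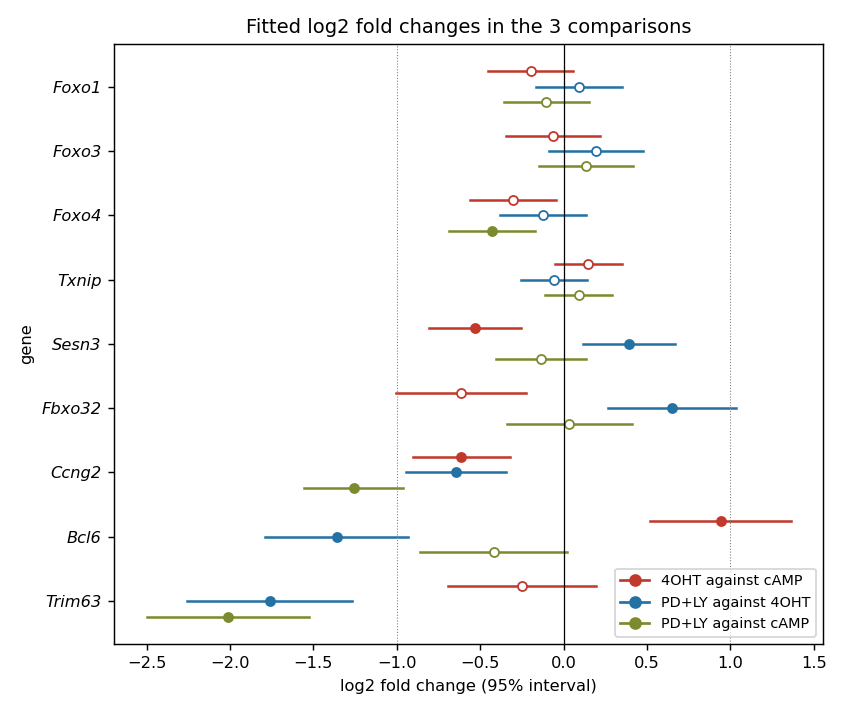
Log2 fold change of the 9 genes in the 3 comparisons with the 95% interval of the edgeR fit (red, 4OHT against cAMP; blue, PD+LY against 4OHT; green, PD+LY against cAMP); filled points passed an adjusted p of 0.05 and dotted lines mark 2-fold. The intervals of Trim63 for both PD+LY comparisons lie wholly below −1, at −2.26 to −1.27 and −2.50 to −1.53, and those of Foxo1, Foxo3 and Txnip include 0 throughout.

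Txnip, which binds thioredoxin and limits glucose uptake, was by far the most abundant of the set. It stood at 289.6 and 294.0 CPM in cAMP, 305.3 and 341.8 with 4OHT, and 323.9 and 298.0 with PD+LY. The 4OHT and PD+LY libraries lay above the cAMP libraries and overlapped with each other. The log2 fold change was 0.15 (95% interval −0.05 to 0.35) for 4OHT against cAMP, −0.06 (−0.26 to 0.14) for PD+LY against 4OHT and 0.09 (−0.11 to 0.29) for PD+LY against cAMP, so a change of 2-fold in either direction lay outside all 3 intervals, and none passed the test.

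Sesn3, a stress-inducible sestrin that restrains mTORC1, was lowest in the 4OHT group, with 31.3 and 37.4 CPM, against 50.9 and 48.5 in cAMP and 47.2 and 43.3 in PD+LY. Both 4OHT libraries lay below the other 4, and both PD+LY libraries lay just below both cAMP libraries. The edgeR log2 fold change was −0.53 ± 0.13 (adjusted p 0.0241) in the 4OHT against cAMP comparison and 0.39 ± 0.13 (adjusted p 0.0421) in that of PD+LY against 4OHT. For PD+LY against cAMP it was −0.14 (95% interval −0.41 to 0.14), which did not pass. The fall with 4OHT lost its call without cAMP library 1 (−0.50), cAMP library 2 (−0.56), 4OHT library 1 (−0.41) or 4OHT library 2 (−0.66). The rise with PD+LY lost its call without cAMP library 1 (0.40), cAMP library 2 (0.40), 4OHT library 1 (0.28), 4OHT library 2 (0.53) or PD+LY library 1 (0.33), so its direction held while its call did not.

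Fbxo32 encodes atrogin-1, the F-box protein of a ubiquitin ligase known from muscle wasting. It was lowest in the 4OHT group too, at 10.9 and 12.1 CPM, against 14.8 and 20.2 in cAMP and 17.6 and 18.4 in PD+LY. Both 4OHT libraries lay below the other 4, and the PD+LY libraries lay between the cAMP libraries. With PD+LY against 4OHT Fbxo32 rose by 0.65 ± 0.18 on the log2 scale, 1.57-fold, with an adjusted p of 0.0209 in the edgeR test. That call was lost without 4OHT library 1 (0.58) or 4OHT library 2 (0.73). For 4OHT against cAMP the log2 fold change was −0.62 ± 0.18 with an adjusted p of 0.0540, just outside the threshold. It passed without cAMP library 1 (−0.82), PD+LY library 1 (−0.62) or PD+LY library 2 (−0.62), and was −0.36 without cAMP library 2. Between PD+LY and cAMP the value was 0.03 (95% interval −0.34 to 0.41) and took the other sign, −0.17, without cAMP library 1. The summed thyroid follicular markers were also lowest in the 4OHT libraries, but most of that sum is Tg, which encodes thyroglobulin. Of the 8 markers, 3 fell with 4OHT against cAMP (Tg and Slc5a5 among them) and 5 rose with PD+LY against 4OHT (Tg, Slc5a5, Tshr and Foxe1 among them), whereas Pax8 and Hhex had values of 0.38 and 0.16 for 4OHT against cAMP and did not pass, and their part in the levels of Sesn3 and Fbxo32 was not tested.

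Trim63 encodes MuRF1, a ubiquitin ligase of striated muscle that is often induced together with Fbxo32 in wasting muscle. Here the pair differed. Trim63 stood at 11.6 and 9.84 CPM in cAMP, 9.14 and 8.83 with 4OHT, and 3.01 and 2.29 with PD+LY, that is at 184, 202, 137, 161, 59 and 47 counts. Both PD+LY libraries were below all 4 others by a wide margin, and the cAMP and 4OHT libraries were close without overlapping. With PD+LY against 4OHT Trim63 fell by 1.76 ± 0.23 on the log2 scale, 3.39-fold, with an adjusted p of 0.000299 (edgeR), and with PD+LY against cAMP it fell by 2.01 ± 0.22, 4.04-fold, with an adjusted p of 6.64e-05. Both calls held without each library in turn, over −1.97 to −1.58 and −2.22 to −1.82. For 4OHT against cAMP the value was −0.25 (95% interval −0.69 to 0.19) and did not pass.

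Since Trim63 and Fbxo32 are known from muscle, 13 striated muscle markers were read beside them. Of these, 10 had at least 3 counts in every library, 9 could be tested, and their summed level was 52.1 to 59.8 CPM in cAMP, 60.0 to 67.9 with 4OHT and 92.3 to 103 with PD+LY. The higher sum in PD+LY came with Des, the intermediate filament desmin, which rose by 1.05 on the log2 scale with PD+LY against 4OHT (edgeR adjusted p 0.000371). No other muscle marker passed in that comparison, where Actc1, Acta1 and Myh6, genes of the contractile apparatus, were at −0.62, −1.05 and −0.12. There Tnnt2, Tnnc1, Myh7 and Ryr2 were at −0.80, −0.76, −0.49 and −0.24, and Ttn at 0.31. None of the 9 passed with 4OHT against cAMP. In that comparison Actc1, Myh6, Acta1, Ttn and Myh7 were at −1.14, −0.97, −0.30, −0.20 and −0.18. Ryr2, Tnnt2, Des and Tnnc1 were at 0.66, 0.46, 0.26 and 0.16. Actc1 and Myh6 had 12 to 50 and 24 to 66 counts per library. With PD+LY against cAMP Des rose by 1.31, while Actc1, Acta1 and Myh6 fell (log2 fold change −1.76, −1.36 and −1.10, edgeR adjusted p 0.0107, 0.0168 and 0.0341). Ryr2 and Ttn, at 0.41 and 0.10, and Tnnt2, Tnnc1 and Myh7, at −0.34, −0.61 and −0.67, did not pass against cAMP. The myogenic factors Myog and Myod1 had 0 to 8 and 0 to 4 counts per library. In bulk RNA, fewer cells of one type and less RNA per cell cannot be told apart, and the part of muscle-like or other cells in the level of Trim63 was not tested.

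Ccng2, an unconventional cyclin linked to cell cycle arrest, fell at each step. It stood at 51.0 and 52.0 CPM in cAMP, 30.2 and 37.1 with 4OHT, and 22.7 and 20.4 with PD+LY, with no overlap between any of the groups. The edgeR log2 fold change was −0.61 ± 0.13 (adjusted p 0.0164) in the 4OHT against cAMP comparison and −0.64 ± 0.14 (adjusted p 0.00616) in that of PD+LY against 4OHT. From cAMP to PD+LY it fell 2.39-fold, a log2 fold change of −1.26 ± 0.14 with an adjusted p of 5.53e-05, and held its call without each library in turn (−1.34 to −1.18). The call for 4OHT against cAMP was lost without cAMP library 1 (−0.63), cAMP library 2 (−0.59), 4OHT library 1 (−0.47) or 4OHT library 2 (−0.77, adjusted p 0.0501). The call for PD+LY against 4OHT was lost without 4OHT library 2 (−0.48). Over the same groups the summed mesenchymal markers stood at 800 to 876, 1499 to 1613 and 2686 to 3015 CPM, and 5 proliferation markers at 2006 to 2137, 1896 to 1959 and 1725 to 1741 CPM. The largest part of the proliferation sum was Top2a. Of those 5 markers 0 passed with 4OHT against cAMP or with PD+LY against 4OHT. With PD+LY against cAMP 2 fell (Top2a and Mki67), where 13.7% of all tested genes fell. Cdk1 alone stood above 0, at 0.08, 0.04 and 0.12 in the 3 comparisons. The mesenchymal sum is mostly the collagen genes Col1a1 and Col3a1, which rose with PD+LY against 4OHT (log2 fold change 0.62 and 1.46), while Pdgfrb, Twist1 and Thy1 fell (−1.26, −1.03 and −0.66, edgeR adjusted p 0.000281, 0.0439 and 0.0139) and Pdgfra did not pass. The part of these markers in the level of Ccng2 was not tested.

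Bcl6, a transcriptional repressor best known from germinal centre B cells, was the one gene of the set that rose with 4OHT against cAMP. Its counts were 122 and 173 in cAMP, 222 and 295 with 4OHT, and 136 and 106 with PD+LY, or 7.67 and 8.43, 14.8 and 16.2, and 6.93 and 5.15 CPM. Both 4OHT libraries lay above the other 4, and both PD+LY libraries lay below both cAMP libraries. With 4OHT against cAMP Bcl6 rose by 0.94 ± 0.19 on the log2 scale, 1.92-fold, with an adjusted p of 0.0125 (edgeR), a call that was lost without cAMP library 1 (0.88), 4OHT library 1 (1.01) or 4OHT library 2 (0.88). With PD+LY against 4OHT it fell by 1.36 ± 0.20, 2.57-fold, with an adjusted p of 0.000626, and that call held without each library in turn (−1.59 to −1.16). Between PD+LY and cAMP the log2 fold change was −0.42 (95% interval −0.86 to 0.02), which passed in 1 of the 12 alternatives run, without PD+LY library 1 (−0.65, adjusted p 0.0436 by edgeR). Lymphoid markers summed to 3.67 to 5.81 CPM over the 6 libraries, none of the 4 that were tested passed in any comparison, and Ptprc, the pan-leukocyte marker, was at 0 throughout.

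The relatives of the 9 genes were read next. Of 10 listed, 9 were tested, and 0 rose and 1 fell with 4OHT against cAMP, 1 rose and 2 fell with PD+LY against 4OHT, and 1 rose and 2 fell with PD+LY against cAMP. In the same comparisons 8.39%, 22.7% and 25.7% of all tested genes passed. Arrdc3, an arrestin-like relative of Txnip, went from 83.2 ± 4.41 CPM (mean ± SD, n = 2) in cAMP to 57.4 ± 6.98 in 4OHT and 88.7 ± 15.7 in PD+LY, with log2 fold changes of −0.53 with 4OHT against cAMP and 0.63 with PD+LY against 4OHT (edgeR adjusted p 0.0312 and 0.00648). Arrdc4, the closest relative of Txnip among the arrestins and like it induced by glucose, fell by 0.52 with PD+LY against 4OHT (adjusted p 0.00895, edgeR). Bcl6b, the paralog of Bcl6, had 49 and 73 counts in cAMP, 24 and 31 with 4OHT, and 4 and 7 with PD+LY, and fell by 2.57 ± 0.48 with PD+LY against 4OHT (adjusted p 0.00294, edgeR). Its PD+LY counts are few, 1 of them near a floor of 3 counts, so the size of that fall is uncertain. Bcl6b is also known from endothelium. Of the 6 endothelial markers tested, none passed with PD+LY against 4OHT, where Kdr, Tie1, Cdh5 and Tek had log2 fold changes of 0.66, 0.85, 0.49 and 0.28, and Cldn5 and Pecam1 of −0.35 and −0.16. With 4OHT against cAMP 4 of them fell, Kdr (−2.31), Tie1 (−3.46), Cdh5 (−1.47) and Cldn5 (−1.98), while Pecam1 rose by 0.36 (edgeR adjusted p 0.000688, 0.00249, 0.00381, 0.0373 and 0.0271). Pecam1 stood at 128 to 171 CPM in the 6 libraries, far above those 4, which stood at 0.267 to 10.7 CPM. Which cells held the Pecam1 transcript was not tested. The part of endothelial cells in the level of Bcl6b was not tested either.

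Other genes reported as FOXO targets, 34 in 4 lists of which 31 were tested, also went both ways. With 4OHT against cAMP 2 rose and 4 fell, with PD+LY against 4OHT 3 rose and 5 fell, and with PD+LY against cAMP 6 rose and 8 fell, with median log2 fold changes of −0.07, 0.0064 and −0.06. Of all tested genes, 8.39%, 22.7% and 25.7% passed in these comparisons. The totals over all lists that follow also count the ERK feedback genes. Tested were 9 relatives, 31 other targets, 2 cyclins, 17 PI3K and AKT genes, 13 regulators and cofactors and 5 ERK feedback genes. Of the ERK feedback genes 1 rose and 2 fell with 4OHT against cAMP. With PD+LY 4 of them fell against 4OHT and 5 against cAMP. Over these lists and the others described here, 12 genes passed with 4OHT against cAMP, but 0 without 4OHT library 1, 1 without 4OHT library 2, 3 without cAMP library 1, 5 without cAMP library 2, 22 without PD+LY library 1 and 21 without PD+LY library 2. For PD+LY against 4OHT 27 passed, but 14 without 4OHT library 1 and 15 without 4OHT library 2. In the comparison of PD+LY with cAMP 29 passed, but 17 without cAMP library 2.

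Among 12 genes of growth arrest and stress, 2 rose and 1 fell with PD+LY against 4OHT, where 10.7% of all tested genes rose and 12.1% fell. Sod2, the mitochondrial superoxide dismutase, went from 96.9 ± 8.99 CPM in 4OHT to 171.7 ± 8.43 in PD+LY (mean ± SD, n = 2), a rise of 0.83 ± 0.10 on the log2 scale (edgeR adjusted p 0.000206), and stood at 75.9 ± 1.39 CPM in cAMP. Klf2, a zinc finger factor of quiescence, rose by 0.80 ± 0.12 (adjusted p 0.000903, edgeR). Cdkn1a, which encodes the cyclin-dependent kinase inhibitor p21, rose by 0.58 ± 0.11 with 4OHT against cAMP and fell by 0.56 ± 0.11 with PD+LY against 4OHT (adjusted p 0.00670 and 0.00294, edgeR). Its levels were 85.8 ± 8.57 CPM in cAMP, 128.6 ± 7.85 with 4OHT and 87.1 ± 4.26 with PD+LY, and the log2 fold change of PD+LY against cAMP was 0.02 (95% interval −0.21 to 0.25). Staining in the study, at other times of treatment, saw no p21 protein in Nkx2-1-positive cells with or without 4OHT. A small part of Nkx2-1-negative cells did stain. Bulk RNA does not tell which cells held the Cdkn1a transcript. Selenop, a selenium carrier, and Cited2, a regulator of hypoxic transcription, fell with 4OHT against cAMP (log2 fold change −0.66 and −0.48, edgeR adjusted p 0.0233 and 0.0361), as did Cat, which encodes catalase and was named after its value was seen (−0.31, adjusted p 0.0473).

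In the cell death list 3 of 4 genes were tested, and Bbc3, which encodes the BH3-only protein PUMA, fell by 0.93 ± 0.17 with PD+LY against 4OHT (edgeR adjusted p 0.00312). Fasl had 2 counts in one cAMP library and 0 in the others. In the list of insulin feedback and metabolism, 9 of 11 genes were tested. None passed with 4OHT against cAMP, where 8.39% of all tested genes passed, and 4 fell with PD+LY against cAMP, where 13.7% fell. Pck1, the gluconeogenic enzyme PEPCK, had 20 and 33 counts in cAMP, 24 and 27 with 4OHT, and 4 and 4 with PD+LY, and fell by 2.91 ± 0.56 with PD+LY against 4OHT (adjusted p 0.00350, edgeR). At 4 counts a library its level in PD+LY lies near the floor, set here at 3 counts, so the size of that fall is uncertain. Insr and Irs2, the insulin receptor and its substrate, which FOXO factors are known to induce, had log2 fold changes of 0.03 and −0.24 for PD+LY against 4OHT, neither of which passed, and Irs2 fell by 0.53 with PD+LY against cAMP (adjusted p 0.00957, edgeR).

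Of 7 autophagy genes, 1 rose and 2 fell with PD+LY against 4OHT, where 10.7% of all tested genes rose and 12.1% fell. Pink1, a kinase of mitophagy, rose by 0.53 ± 0.11 (edgeR adjusted p 0.00449), and Bnip3, a mitophagy receptor, and Gabarapl1, an autophagosome protein, fell (−0.36 and −0.31, adjusted p 0.0421 and 0.0355). Bnip3 also fell by 0.66 ± 0.12 with 4OHT against cAMP (adjusted p 0.00588, edgeR), and stood at 274.6 ± 14.7 CPM in cAMP, 174.1 ± 22.6 with 4OHT and 135.5 ± 16.7 with PD+LY (mean ± SD, n = 2). Atg14, a subunit of an autophagy PI3K complex, rose with 4OHT against cAMP by 0.53 ± 0.10 (adjusted p 0.00958, edgeR).

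The cyclins Ccnd1 and Ccnd2, which FOXO factors are known to repress, both fell with PD+LY. Ccnd1 went from 52.5 ± 2.60 CPM in 4OHT to 16.6 ± 2.51 in PD+LY (mean ± SD, n = 2), a log2 fold change of −1.66 ± 0.14 (edgeR adjusted p 1.58e-05), and Ccnd2 fell by 0.55 ± 0.17 (adjusted p 0.0375). Neither passed with 4OHT against cAMP, at −0.17 and −0.07. Ccnd1 is also known as a target of ERK signalling, and shares 1100 exon bases with LTO1 on the opposite strand, which had 1674 counts over the 6 libraries against 305 to 1264 of Ccnd1 in each.

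**Figure D3:**
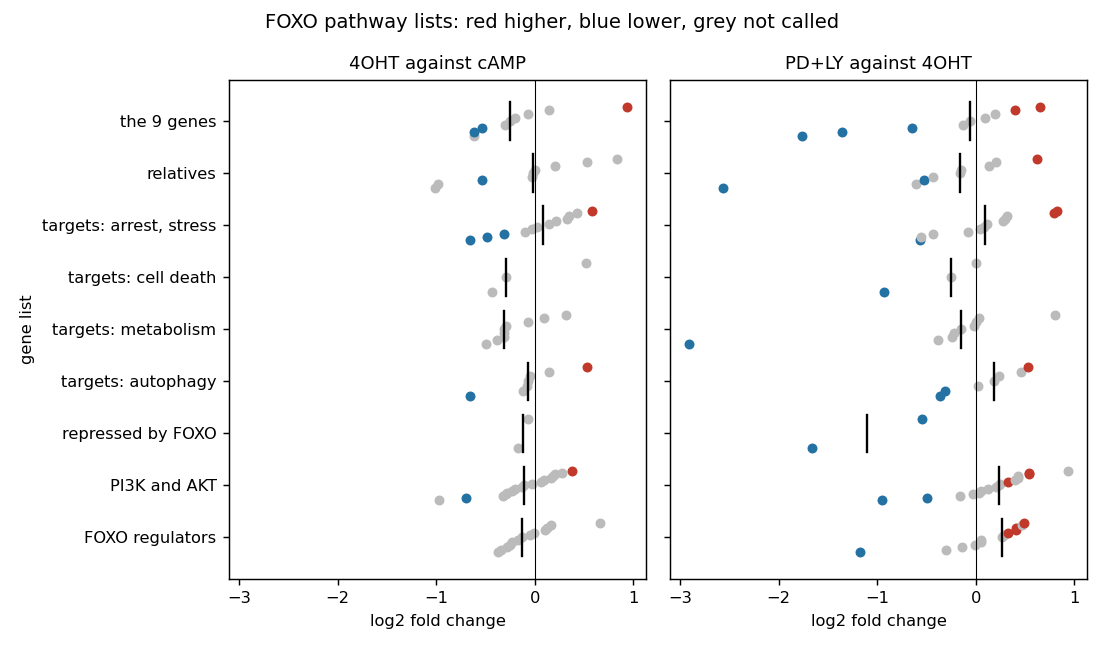
Log2 fold change of each tested gene in the 9 genes and in the lists around them (1 point per gene, spread vertically only for legibility; black bars, list medians) for 4OHT against cAMP (left) and PD+LY against 4OHT (right); red and blue points passed an adjusted p of 0.05 upward and downward. In the right panel called genes lie on both sides of 0 in most lists, and both Ccnd genes lie below 0. In the left panel several lists hold no called gene.

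Upstream of the factors, 17 of 18 genes of the PI3K and AKT pathway were tested. With PD+LY against 4OHT 3 rose and 2 fell, beside shares of 10.7% up and 12.1% down over all tested genes. Among those that rose, Pik3r1 (a regulatory PI3K subunit) and Pik3cb (a catalytic subunit) did so by 0.54 and 0.33 on the log2 scale (edgeR adjusted p 0.0109 and 0.0308). Pik3cd, the catalytic subunit typical of leukocytes, fell by 0.95 ± 0.14 (adjusted p 0.000602, edgeR), and Sgk1, a kinase that phosphorylates FOXO factors as AKT does, fell by 0.50 ± 0.10 (adjusted p 0.00580, edgeR). With 4OHT against cAMP 1 gene of the list rose, Sgk1 by 0.38 (adjusted p 0.0441, edgeR), and 1 fell. Over all tested genes 4.04% rose and 4.35% fell there.

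A list of 13 genes held regulators and cofactors of FOXO proteins, with the glucose-sensing factors Mlxip and Mlxipl beside them. None passed with 4OHT against cAMP, where 8.39% of all tested genes passed. With PD+LY against 4OHT 4 rose and 1 fell, beside shares of 10.7% up and 12.1% down over all tested genes. The 1 that fell was Mlxipl, which is not a FOXO regulator. The genes that rose were Stk3, a kinase that phosphorylates FOXO3, by 0.49, Crebbp, an acetyltransferase, by 0.41, Skp2, a ubiquitin ligase subunit, by 0.41, and Usp7, a deubiquitinase, by 0.33 (edgeR adjusted p 0.0104, 0.0269, 0.0156 and 0.0160). Mlxipl, which encodes the glucose-sensing factor ChREBP that induces Txnip, fell by 1.18 ± 0.20 (adjusted p 0.00158, edgeR). It stood at 8.08 ± 0.570 CPM in cAMP, 12.8 ± 1.39 with 4OHT and 5.66 ± 0.870 with PD+LY (mean ± SD, n = 2), while Txnip itself did not pass in any comparison.

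For each of the 5 genes called with PD+LY against 4OHT, the 3 genes of most similar profile were taken from 12224 tested genes averaging at least 50 counts, by the root mean square (RMS) difference of log2 CPM centred per gene over the 6 libraries. Bcl6 lay nearest to Egfr, the receptor of epidermal growth factor, and Lif, a cytokine, with RMS differences of 0.0547 and 0.0700, and then to Sparcl1 at 0.119. Trim63 lay nearest to Foxn4, Ccnd1 and Etv1, at 0.119, 0.122 and 0.122. Ccng2 lay nearest to Epcam, an epithelial adhesion protein, at 0.0471, Tmem184a at 0.0790 and Pgk1, a glycolytic enzyme, at 0.0803. Sesn3 was closest to Cspg5, at 0.0503, with Plcl2 also among its nearest 3 at 0.0579, and Fbxo32 to Endov, Zfp949 and Tfap4, at 0.0823, 0.0856 and 0.0907. No gene of the set was among the nearest 3 of another, which with 12224 genes searched says little about whether genes of the set move together.

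**Figure D4:**
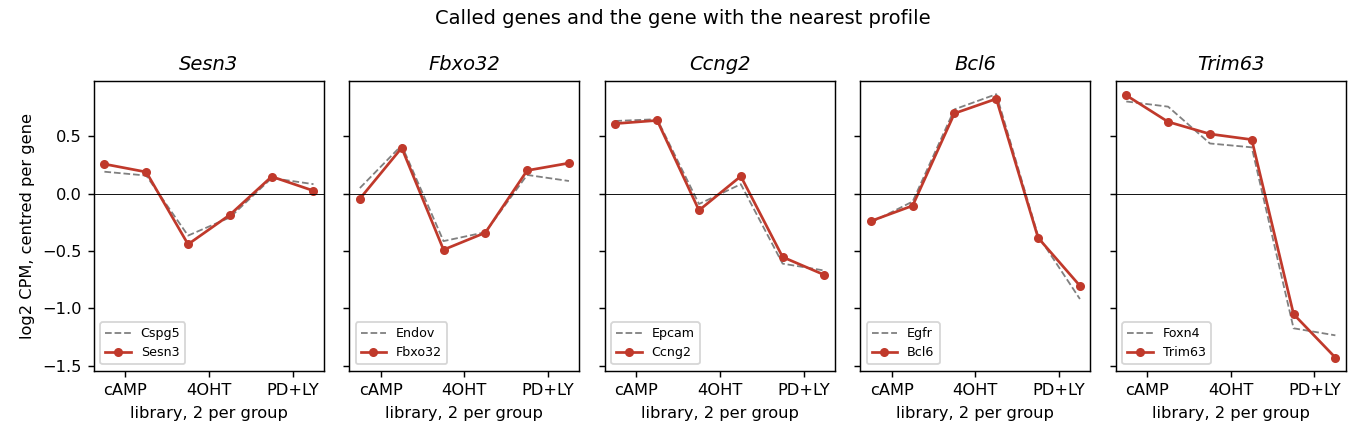
Log2 CPM, centred per gene, in the 6 libraries for the 5 genes called with PD+LY against 4OHT (red) and the gene of nearest profile to each (grey dashed line); the lines join libraries only to guide the eye. Sesn3 and Fbxo32 dip in 4OHT, Ccng2 steps down from cAMP to PD+LY, Bcl6 peaks in 4OHT, and Trim63 drops in PD+LY.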

How the data were processed

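Bulk RNA-seq of 6 libraries was analysed. According to the methods of the study, the authors trimmed reads with Trimmomatic, aligned them to mm10 with HISAT2 and used HTSeq, in its unstranded mode, to count reads per gene, although the library kit was stranded. The deposited values are raw counts.

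In R 4.3.3, filterByExpr (minimum count 10, minimum total 15) kept 15256 of 25239 genes, and 1 edgeR 4.0.16 quasi-likelihood model with TMM normalization was fitted to the 3 groups, after a check on simulated data. A call is an adjusted p (Benjamini-Hochberg over all tested genes) under 0.05. Standard errors were taken from the fold change and its F statistic. CPM are relative to TMM-scaled totals, and exon lengths and positions are from GENCODE M21. The study states duplicate experiments but not separate cultures, so p-values measure the spread between these libraries, which may be partly technical. An exact permutation of 2 against 2 libraries cannot go below 0.333.

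The genes and lists were chosen with earlier results of these data known. Named are the 9 genes, Foxo6, of each list up to 5 called genes with the largest change with PD+LY against 4OHT and up to 3 with 4OHT against cAMP, and nearest profiles. A few others are named after their values were seen: Cat, Fasl, Insr, Irs2 and marker genes. Values of some genes that the rule names are not reported here. Alternatives were DESeq2 1.42.0, RLE size factors, other filters, only the groups compared, a replicate block and leaving out each library.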

Additional observations from a re-analysis of the deposited data

How the results depend on the processing

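For 4OHT against cAMP, the number of the 9 genes called was 3, and became 5 with only the groups compared, 0 when a 2-fold change was also required, and 0 to 5 without each library in turn (0 without 4OHT library 1 or 2, 1 without cAMP library 1 or 2, 5 without PD+LY library 1 or 2). The number of genes called in the surrounding lists was 12, and became 23 with no filter, 21 with only the groups compared, and 0 to 22 without each library. For PD+LY against 4OHT, 5 of the 9 were called, 2 with a 2-fold change required, and 2 to 5 without each library (3 without 4OHT library 1, 2 without 4OHT library 2), and the 27 list genes called became 14 to 34. For PD+LY against cAMP, 3 of the 9 were called and 2 to 3 without each library, and the 29 list genes became 17 to 34. Replicate numbers were not shown to pair the libraries: the labels name no shared batch, and deviations from the group means correlated at 0.0718, 0.207 and 0.0586 between groups over 15256 genes. With the replicate number as a block, 4, 5 and 3 of the 9 genes and 22, 39 and 40 list genes were called, the added member being Fbxo32 for 4OHT against cAMP (adjusted p 0.0129, edgeR).

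Signs changed only for values near 0 that passed in no setting: Foxo3 for 4OHT against cAMP (0.042 without 4OHT library 1, range −0.17 to 0.042 without each library), Foxo4 for PD+LY against 4OHT (0.032 without PD+LY library 1, range −0.30 to 0.032), Txnip for PD+LY against 4OHT (0.030 without 4OHT library 2, 0.0027 without PD+LY library 2, range −0.13 to 0.030), Foxo3 for PD+LY against cAMP (−0.0085 without PD+LY library 2, range −0.0085 to 0.26) and Fbxo32 for PD+LY against cAMP (−0.17 without cAMP library 1, range −0.17 to 0.29). The cause was not tested, though fewer libraries enter each such fit. The calls of Trim63 and Bcl6 for PD+LY against 4OHT, and of Trim63 and Ccng2 for PD+LY against cAMP, held in all 12 alternatives. Of 324 values of single genes under an alternative, 285 kept direction and side of the threshold, 23 lost a call, 10 gained one and 6 changed sign. A group left with 1 library was assumed to vary like the others. Single genes of the surrounding lists were not recomputed without each library, only their number. With 2 libraries a group, the interval for Trim63 in 4OHT against cAMP ran from −0.69 to 0.19.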
